A study of Macaca mulatta with 24 samples.

Results

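Sodium, calcium, HCN and TRP channel genes were examined in 4 neocortical areas of young rhesus macaques (Macaca mulatta). A probe set was a member when the array annotation gave it a single gene symbol beginning with SCN, HCN, TRPC, TRPM or TRPV and a digit, or with CACN. The rule found 63 probe sets of 43 genes, out of 24956 singly named probe sets of 14132 genes. There were 9 sodium channel genes (15 probe sets), 17 calcium channel genes (26 probe sets), 1 HCN gene and 16 TRP genes (21 probe sets). Of the 43 genes, 17 had several probe sets.

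The tissue came from primary motor cortex (M1, its forelimb part), dorsal premotor cortex (PMd), ventral premotor cortex (PMv) and area 46 of prefrontal cortex (A46). Pieces were cut by sulcal landmarks from the left and the right hemisphere of 3 untreated, group-housed animals, giving 24 one-colour Affymetrix arrays, 6 per area. Animals 1 and 2 were males aged 2.7 and 2.6 years, and animal 3 was a female aged 2.7 years, so fits without animal 3 hold males only. All animals were perfused under pentobarbital before dissection.

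Voltage-gated sodium channels open when the membrane depolarises and carry the upstroke of the action potential. A large alpha subunit forms the pore and small beta subunits adjust its gating and its placement, which is dense at the axon initial segment and at nodes of Ranvier. Voltage-gated calcium channels turn depolarisation into calcium entry for transmitter release, dendritic signalling and gene regulation. Their alpha1 subunit forms the pore, alpha2delta and beta subunits bring it to the membrane, and most gamma family proteins of brain serve as partners of AMPA-type glutamate receptors. HCN channels open on hyperpolarisation and carry a depolarising current, and TRP channels are cation channels that respond to receptors, lipids, temperature or other cues.

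Values are log2 intensities, given as the mean of both hemispheres of an animal. An area difference is a log2 difference of area means (n = 3 animals), given with its standard error (SE) from limma, and a result was called at a Benjamini-Hochberg adjusted p under 0.05 over all 26383 probe sets tested. Probe sets with a mean log2 intensity under 5.62, the median of the array, were not tested. That left 41 member probe sets of 27 genes in the tests (65.1%, against 50.0% of all probe sets), and 16 genes with none. Levels of different probe sets are not comparable, since probes differ in how strongly they bind. The design fixes the number of animals at 3, and that number limits the precision.

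The left PMv arrays of animals 1 and 2 stood apart from the rest, with median correlations with the other arrays of 0.984 and 0.988, against 0.991 to 0.993 for the other 22 arrays. Differences for PMv whose call changed without these arrays are given both ways, as are some whose size changed. Log2 ratios of 3′ to 5′ control probe sets, a measure of RNA integrity, averaged 0.94 ± 0.05 in M1, 0.99 ± 0.15 in PMd, 1.1 ± 0.14 in PMv and 1.08 ± 0.11 in A46 for actin (SD, n = 3 animals). For GAPDH they averaged 0.96 ± 0.04 in M1, 0.95 ± 0.06 in PMd, 0.92 ± 0.06 in PMv and 0.84 ± 0.05 in A46. The part of RNA integrity in the area differences was not tested.

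Across the 4 areas, the channel genes that differed were the sodium channel alpha genes SCN1A and SCN3A, the sodium channel beta gene SCN3B and the calcium channel beta gene CACNB3. SCN1A was highest in M1 and lowest in A46. SCN3A was lowest in M1 and highest in A46, as was the brighter probe set of CACNB3. The second CACNB3 probe set was also lowest in M1 but was highest in PMd. SCN3B was lowest in M1 and had means of 10.55 in PMv and 10.54 in A46. The F test over the areas called 6 of 41 member probe sets (14.6%), against 6.53% of all probe sets tested: both of SCN1A, 2 of SCN3B, and 1 each of SCN3A and CACNB3. Leaving out animal 1 gave a count of 2, leaving out animal 2 gave 0, and leaving out animal 3 gave 14. It was 1 on the left hemisphere arrays alone, 3 with each array centred on its median, and 0 with no animal term. The range of the 4 area means had a median of 0.21 (log2) over the members, against 0.16 over all tested probe sets, and a 90th percentile of 0.36 against 0.34.

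M1 was then set against A46, the comparison of primary motor with prefrontal cortex. In M1, 10 of 41 member probe sets were called (24.4%), against 12.9% of all tested. Both SCN1A probe sets were higher, and 8 probe sets of SCN2A, SCN3A, SCN3B, CACNB2, CACNB3 and TRPV2 were lower. As shares, 4.88% of members were higher against 7.49% of all probe sets, and 19.5% were lower against 5.36%. The difference was below 0 for 32 of 41 member probe sets, with a median of -0.11 over the members and -0.01 over all tested probe sets. With arrays of the right hemisphere alone it was below 0 for 29, and with those of the left alone for 33. At an unadjusted p under 0.05 there were 17 members (41.5%), against 25.9% of all tested. In bulk tissue, fewer cells of a type and less RNA per cell cannot be told apart.

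The called members did not all hold when animals were left out. Leaving out animal 1 kept 5 of these 10 probe sets called, leaving out animal 2 kept 1, and leaving out animal 3 kept 10. Calls over all tested probe sets moved too, from 1976 higher and 1415 lower to 1195 and 453 without animal 1. They were 279 and 124 without animal 2, and 2707 and 2703 without animal 3. With no animal term in the model, 4 were called: that of SCN3A (adjusted p = 0.0177), those of SCN3B (0.0314 and 0.0382) and that of CACNB3 (0.0345). With each array centred on its median, SCN2A (0.128) and both called probe sets of CACNB2 (0.124 and 0.133) were no longer called.

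Animals differed as well as areas. Within the 12 means of a tested member probe set, area accounted for a median of 25.3% of the variance and animal for 35.7%, and the animal share was the larger in 21 of 41.

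SCN1A encodes a pore subunit that in rodents is prominent in fast-spiking interneurons, and loss of it causes a severe epilepsy in humans. Its log2 intensity (probe set MmugDNA.39068.1.S1_at) was 9.07, 8.56 and 8.5 in M1 of animals 1, 2 and 3, and 8.8, 8.47 and 8.07 in PMd. It was 8.09, 7.87 and 8.05 in PMv, against 8.31, 7.65 and 7.56 in A46. Every M1 value lay above every A46 value, while PMv and A46 overlapped.

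In single arrays, the SCN1A intensity had a lowest, median and highest value of 332, 392 and 540 in M1, against 174, 216 and 323 in A46. SCN1A was 1.83-fold higher in M1 than in A46 (adjusted p = 0.000363), higher in 6 of 6 hemispheres by 0.74 to 1.08 (log2). Here and below, hemispheres are 2 per animal and are the values averaged in the test, so they are not separate replicates. The second SCN1A probe set was higher by 0.73 (SE 0.11, adjusted p = 0.00103), a call lost without animal 2 (adjusted p = 0.0651). It was higher in 6 of 6 hemispheres, by 0.21 to 1.0. Animal 1 had the lowest M1 value at this probe set (7.93) and the highest at the first (9.07). SCN1A was also higher in PMd than in A46 (0.6, SE 0.12, adjusted p = 0.0213), a call that the second probe set missed (0.46, adjusted p = 0.061).

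For PMv minus A46 the SCN1A difference was 0.16 (SE 0.12, adjusted p = 0.476). With PMv of animals 1 and 2 taken from the right array alone it was 0.41 (SE 0.08, adjusted p = 0.0186), and 0.2 (SE 0.12, adjusted p = 0.427) in the second probe set. Without animal 1 the adjusted p for PMd minus A46 was 0.0681, and without animal 2 it was 0.724. The M1 call of SCN1A held without animal 2 (adjusted p = 0.034), but with no animal term it had adjusted p = 0.0524.

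SCN3A encodes a pore subunit that in mammals is most abundant in fetal and newborn brain. Its log2 intensity (probe set MmuSTS.2368.1.S1_at) was 7.08, 7.21 and 7.3 in M1 of animals 1, 2 and 3, and 7.3, 7.56 and 7.57 in PMd. It was 7.27, 7.47 and 7.91 in PMv, against 7.92, 7.91 and 7.82 in A46. All M1 and PMd values were below all A46 values, and PMv of animal 3 was as high as A46. The PMv values of animals 1 and 2 include the left arrays that stood apart.

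SCN3A was at 0.619-fold in M1 relative to A46, a log2 difference of -0.69 (SE 0.11, adjusted p = 0.00108), and was lower in 6 of 6 hemispheres. The differences from A46 were -0.41 (SE 0.11, adjusted p = 0.0779) in PMd and -0.33 (SE 0.11, adjusted p = 0.138) in PMv. With the right PMv arrays of animals 1 and 2 alone, the PMv difference was -0.26 (SE 0.1, adjusted p = 0.167). The M1 call was lost without animal 2 (adjusted p = 0.0709) and on the left hemisphere arrays alone (adjusted p = 0.0668). SCN3A had a single probe set, so no second probe set could be set beside it.

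SCN2A encodes the pore subunit of the axon initial segment of excitatory neurons. It had 10.92, 11.0 and 11.06 in M1 of animals 1, 2 and 3, against 11.37, 11.24 and 11.19 in A46. The groups did not overlap, and SCN2A was lower in M1 in 6 of 6 hemispheres (difference -0.27, SE 0.07, adjusted p = 0.0305). Its second probe set had -0.33 (SE 0.11, adjusted p = 0.0616) and was lower in 5 of 6 hemispheres. The call was lost without animal 1 (adjusted p = 0.242) and without animal 2 (adjusted p = 0.349).

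In the order of SCN2A area means, M1 (10.99 ± 0.07) was lowest, followed by PMv (11.06 ± 0.15), PMd (11.09 ± 0.04) and A46 (11.26 ± 0.1) (log2, SD, n = 3 animals). The premotor areas were -0.18 (PMd, adjusted p = 0.265) and -0.2 (PMv, adjusted p = 0.172) from A46, and PMv was -0.09 (adjusted p = 0.428) with the right arrays of animals 1 and 2 alone.

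SCN8A encodes the pore subunit of the distal initial segment and of nodes of Ranvier, and is named here after its values were seen. It had 8.86, 8.48 and 9.31 in M1 of animals 1, 2 and 3, against 9.1, 8.63 and 8.98 in A46. The groups overlapped, with a difference of -0.02 (SE 0.11, adjusted p = 0.946), and animal accounted for 78.5% of the variance of its means and area for 6.55%. For SCN1A, SCN3A and SCN3B area accounted for 63.2%, 71.1% and 86.0%. These genes were called by the F test over areas on the same means, so large area shares follow from that choice.

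**Figure D1:**
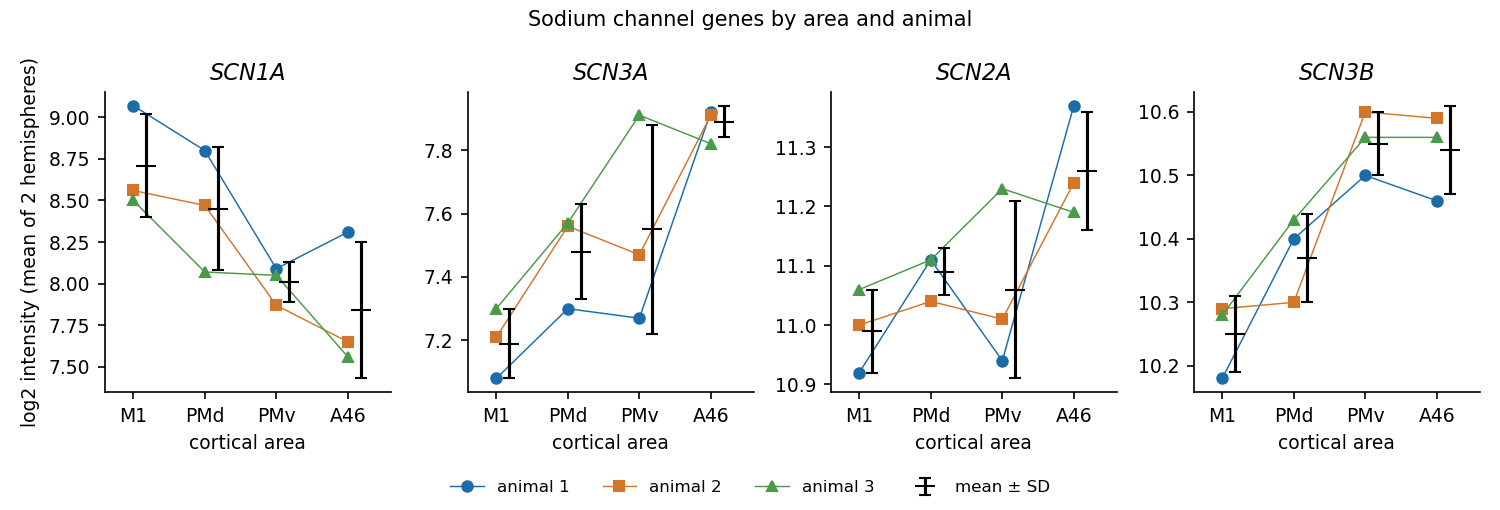
Log2 intensity of sodium channel genes (vertical axes, mean of both hemispheres, each panel with its own scale) in M1, PMd, PMv and A46. Points joined by a line are 1 animal, and black bars give the mean and SD over 3 animals. SCN1A stands highest in M1 (8.71) and lowest in A46 (7.84), while SCN3A runs the other way (7.19 in M1, 7.89 in A46).

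SCN3B encodes a beta subunit that adjusts the gating of the pore. It (probe set MmugDNA.34284.1.S1_at) had 10.18, 10.29 and 10.28 in M1 of animals 1, 2 and 3, and 10.4, 10.3 and 10.43 in PMd. It had 10.5, 10.6 and 10.56 in PMv, against 10.46, 10.59 and 10.56 in A46. M1 and PMd lay below A46 in all animals, and PMv and A46 overlapped.

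SCN3B differed by -0.29 (SE 0.06, adjusted p = 0.00571) between M1 and A46, and a second probe set by -0.31 (SE 0.06, adjusted p = 0.00411). The third had -0.17 (SE 0.07, adjusted p = 0.147). Without animal 2 the adjusted p of the called pair was 0.192 and 0.144, and without animal 1 that of the second was 0.066.

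The sodium channel genes that differed in opposite directions are neighbours. In the T2T-MMU8v2.0 rhesus annotation, which is not the build of these arrays and is used only for the order of genes, SCN3A, SCN2A, SCN1A, SCN9A and SCN7A lie in that order within a run of 9 protein-coding genes, the other 4 being no sodium channels. In M1 against A46, SCN3A and SCN2A were lower and SCN1A was higher. SCN9A, of peripheral sensory neurons, and SCN7A, a relative that in rodent glia senses sodium, lay below the intensity filter, with mean log2 intensities of 5.37 and 5.17.

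Most tested calcium channel probe sets had lower values in M1 than in A46. Of 22 tested probe sets of 15 genes, 19 had a difference below 0, where the median over all tested probe sets was -0.01. Limma called 3 of the 22, all of beta subunit genes and all lower. Of all tested probe sets 12.9% were called, 7.49% higher and 5.36% lower. The 7 alpha1 probe sets had differences of -0.21 to -0.02 (median -0.16) and 0 were called by limma, with adjusted p of at least 0.0534. At an unadjusted p under 0.05 there were 2 of the 7, where 25.9% of all tested probe sets were. The 7 beta probe sets had differences of -0.36 to -0.07 (median -0.23), and the 6 gamma probe sets differences of -0.08 to 0.09 (median -0.05).

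CACNB3 encodes a cytoplasmic beta subunit that carries the pore to the membrane. It (probe set MmuSTS.3281.1.S1_at) had 8.69, 8.81 and 8.63 in M1 of animals 1, 2 and 3, and 8.89, 9.04 and 8.83 in PMd. It had 8.93, 9.07 and 8.96 in PMv, against 9.12, 9.15 and 8.95 in A46. M1 was lowest in every animal, below all A46 values.

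CACNB3 differed by -0.36 (SE 0.06, adjusted p = 0.00149) between M1 and A46, 0.778-fold, and was lower in 6 of 6 hemispheres. A second, dimmer probe set had -0.08 (SE 0.08, adjusted p = 0.593) and was lower in 4 of 6 hemispheres. Its means were 6.11 in M1, 6.35 in PMd, 6.24 in PMv and 6.19 in A46. The probe sets thus gave neither the same size nor the same order of areas. Without animal 2 the adjusted p of the brighter probe set was 0.116.

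CACNB2, a second beta subunit gene, had 8.74, 8.66 and 9.09 in M1 of animals 1, 2 and 3, against 9.19, 9.04 and 9.19 in A46. M1 of animal 3 was above A46 of animal 2, so the groups overlapped. The difference was -0.31 (SE 0.09, adjusted p = 0.0374), and of the other probe sets 1 was called (-0.23, SE 0.07, adjusted p = 0.0415) and the other had -0.24 (SE 0.09, adjusted p = 0.115). The call was lost without animal 1 (adjusted p = 0.153) and without animal 2 (adjusted p = 0.495).

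CACNA1B encodes the pore of N-type channels, which trigger transmitter release. It had 11.86, 12.01 and 11.81 in M1 of animals 1, 2 and 3, against 11.73, 12.05 and 11.96 in A46. The groups overlapped (difference -0.02, SE 0.06, adjusted p = 0.894). Its second probe set had -0.21 (SE 0.07, adjusted p = 0.0534), so the probe sets disagreed in size.

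CACNA2D2, an alpha2delta subunit gene, had 7.95, 8.09 and 8.04 in M1 of animals 1, 2 and 3, against 8.02, 8.01 and 7.73 in A46. The difference was 0.1 (SE 0.08, adjusted p = 0.491) and the groups overlapped. CACNA2D1, the subunit bound by gabapentin, is named after its values were seen and had -0.35 (SE 0.11, adjusted p = 0.0612).

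CACNG2 encodes stargazin, a partner of AMPA receptors. It had 7.33, 7.48 and 7.95 in M1 of animals 1, 2 and 3, against 7.32, 7.38 and 7.84 in A46. Animal 3 was highest in every area, and animal accounted for 95.9% of the variance and area for 1.17%. The area difference was 0.08 (SE 0.07, adjusted p = 0.539).

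HCN3 was the HCN gene named on the array, with a single probe set. It had 6.09, 6.02 and 6.19 in M1 of animals 1, 2 and 3, and 6.2, 6.03 and 6.18 in PMd. It had 6.3, 6.09 and 6.12 in PMv, against 6.08, 6.07 and 6.23 in A46. The areas overlapped, and the M1 difference from A46 was -0.03 (SE 0.08, adjusted p = 0.847). Other HCN genes were not analysed here.

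TRPV2, a cation channel of sensory neurons and immune cells, had 6.61, 6.86 and 6.82 in M1 of animals 1, 2 and 3, and 6.73, 7.01 and 6.97 in PMd. It had 6.85, 6.93 and 6.91 in PMv, against 6.98, 7.09 and 7.04 in A46. M1 values all lay below A46 values. The M1 difference was -0.27 (SE 0.07, adjusted p = 0.018), and that of its second probe set -0.25 (SE 0.11, adjusted p = 0.145). Without animals 1, 2 and 3 in turn the adjusted p was 0.153, 0.269 and 0.0239. On the right hemisphere arrays alone the TRPV2 difference was -0.17 (adjusted p = 0.287), and with no animal term it had adjusted p = 0.139.

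**Figure D2:**
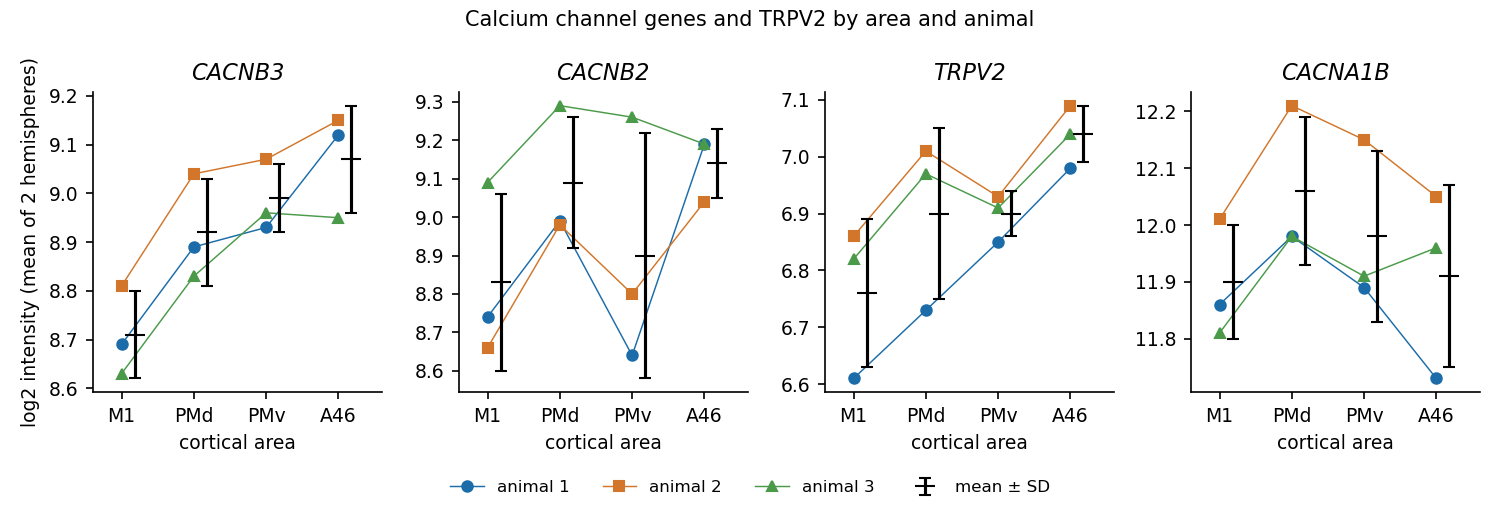
Log2 intensity (vertical axes, mean of both hemispheres, each panel with its own scale) of CACNB3, CACNB2, TRPV2 and CACNA1B in M1, PMd, PMv and A46. Points joined by a line are 1 animal, and black bars give the mean and SD over 3 animals. CACNB3 averaged 8.71 in M1 and 9.07 in A46, whereas CACNA1B averaged 11.9 in M1 and 11.91 in A46.

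TRPM6 encodes a channel with a kinase domain that handles magnesium in kidney and gut. It had 7.31, 7.13 and 7.02 in M1 of animals 1, 2 and 3, against 6.94, 7.09 and 7.06 in A46. The difference was 0.13 (SE 0.1, adjusted p = 0.493), and -0.11 (SE 0.08, adjusted p = 0.41) in its second probe set, so the sign depended on the probe set. The 5 tested TRPM probe sets had a median of 0.02.

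The 13 other tested genes, SCN4A, CACNA1D, CACNA1E, CACNA1F, CACNA1I, CACNB1, CACNG1, CACNG4, CACNG5, CACNG7, TRPM3, TRPM4 and TRPM5, had 16 probe sets with M1 minus A46 differences of -0.2 to 0.09. Their lowest adjusted p was 0.0919 for M1 minus A46 and 0.337 for any area difference.

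All 5 TRPC probe sets lay below the intensity filter. TRPC1, a subunit of receptor-operated channels, had the highest mean of them and 5.52, 4.92 and 5.92 in M1 of animals 1, 2 and 3, against 6.26, 4.83 and 5.9 in A46. Animal accounted for 83.2% of its variance and area for 3.32%. Just inside the filter was the second probe set of TRPM6 (5.64), and just outside it were the second probe set of CACNG5 (5.61), TRPV4 (5.56) and CACNA1C (5.51).

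**Figure D3:**
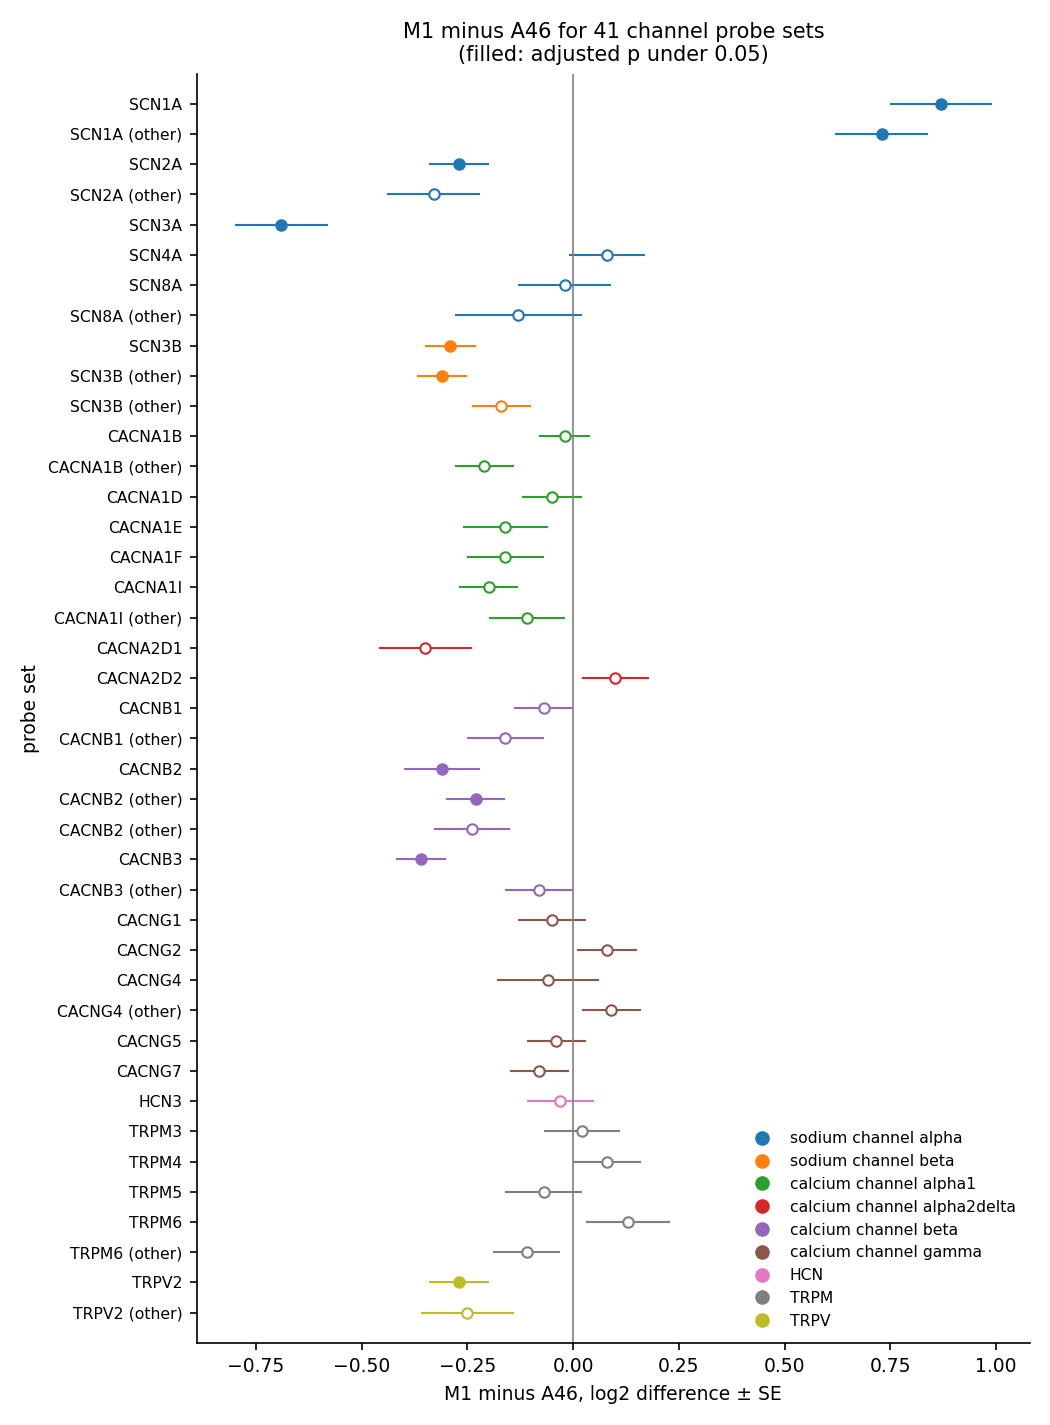
M1 minus A46 log2 difference (horizontal axis) for each of the 41 tested member probe sets, coloured by family, with bars of 1 SE and filled points for adjusted p under 0.05. Most points lie left of 0 (32 of 41), and the SCN1A probe sets lie farthest right.

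Few members were called between the premotor areas and A46. For PMd minus A46, 1 of 41 member probe sets was called (2.44%), that of SCN1A and higher, against 1.95% of all tested, of which 1.39% were higher and 0.561% lower. For PMv minus A46, limma called 0 of 41 members, against 1.23% of all tested (0.629% higher and 0.599% lower). The median over the members was -0.09 for PMd and -0.07 for PMv. At an unadjusted p under 0.05 there were 11 members for PMd (26.8%, against 15.5% of all) and 9 for PMv (22.0%, against 18.8% of all).

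With PMv of animals 1 and 2 taken from the right hemisphere alone, 1 member was called for PMv minus A46, SCN1A, which was higher. For PMd minus A46, 4 were called in that fit: both SCN1A probe sets, higher, and SCN3A (-0.41, adjusted p = 0.0301) and the second SCN3B probe set (-0.22, adjusted p = 0.0382), lower.

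M1 was also set against the mean of both premotor areas, and 3 of 41 member probe sets were called (7.32%), against 2.16% of all tested (1.52% higher and 0.637% lower). SCN1A was higher by 0.49 (SE 0.1, adjusted p = 0.0275). SCN3B (-0.22, SE 0.05, adjusted p = 0.045) and CACNB3 (-0.24, SE 0.05, adjusted p = 0.0292) were lower. Second probe sets missed these calls, with 0.38 for SCN1A (adjusted p = 0.067) and -0.19 for SCN3B (adjusted p = 0.0797). That of CACNB3 had -0.19 (adjusted p = 0.266), and the third of SCN3B -0.13 (adjusted p = 0.427). Each of the 3 calls was lost without animal 1, with adjusted p of 0.11 for SCN1A, 0.34 for SCN3B and 0.134 for CACNB3. Without animal 2 these were 0.418 for SCN1A, 0.632 for SCN3B and 0.803 for CACNB3. Taking PMv of animals 1 and 2 from the right hemisphere alone gave 0.36 for SCN1A (adjusted p = 0.0119), and SCN3A (-0.36, adjusted p = 0.0317) and the second SCN3B probe set (-0.2, adjusted p = 0.0323) were then called too.

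PMd minus PMv called 0 of 41 members by limma, against 0.00758% of all tested, and 4 members at an unadjusted p under 0.05, where 5.4% of all were. Those 4 were 1 SCN1A probe set and the 3 of SCN3B, in opposite directions. SCN1A had a difference of 0.44 (SE 0.12, adjusted p = 0.819), and 0.19 (SE 0.08, adjusted p = 1) with the right PMv arrays of animals 1 and 2 alone. The SCN3B probe sets had -0.18, -0.21 and -0.17 (adjusted p = 0.854 each).

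No member was called between the hemispheres. For left minus right, limma called 0 of 41, against 0% of all tested, and 2 (4.88%) at an unadjusted p under 0.05 against 7.66% of all. SCN1A had -0.22 (SE 0.07, adjusted p = 0.485) and TRPM6 0.12 (SE 0.06, adjusted p = 0.62). The second probe set had the other sign in both genes. It had 0.06 (SE 0.04, adjusted p = 0.769) for SCN1A and -0.05 (SE 0.06, adjusted p = 0.903) for TRPM6. These values include the left PMv arrays of animals 1 and 2, which stood apart. The test that left minus right differs among areas called 0 of 41 members, against 0% of all tested, with 0 members at an unadjusted p under 0.05 against 4.65% of all.

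**Figure D4:**
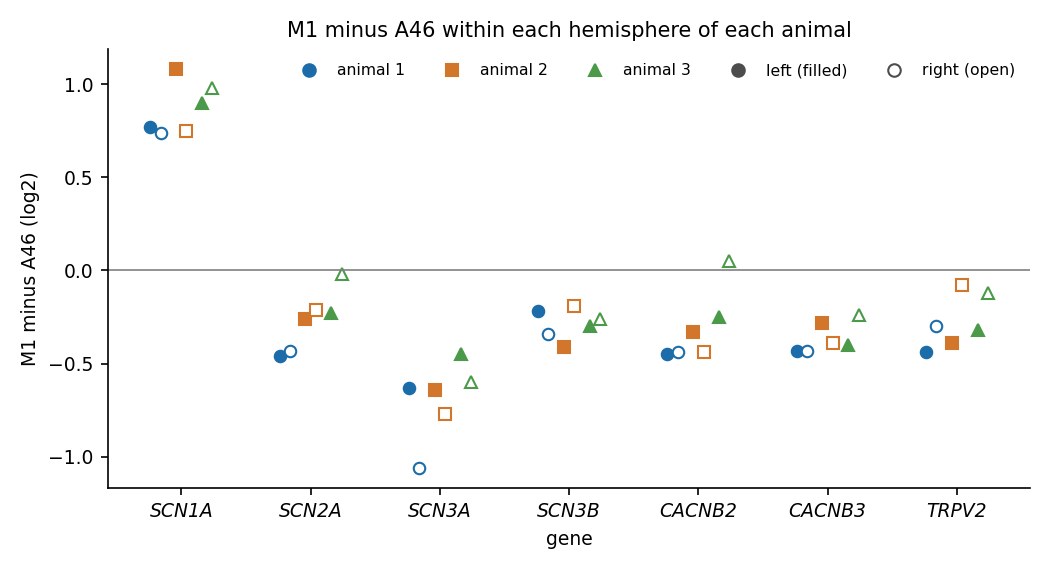
M1 minus A46 log2 difference (vertical axis) in each hemisphere of each animal (filled for left, open for right) for the 7 genes called in that comparison. Each gene is shown at its brightest probe set. SCN1A is above 0 in 6 of 6 hemispheres (0.74 to 1.08) and SCN3A below 0 in 6 of 6.

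Other genes of the channel complexes were read from lists. For M1 minus A46, 7.49% of all tested probe sets were higher and 5.36% lower. Of 12 tested genes of the axon initial segment and node of Ranvier, 2 were higher in M1 than in A46 and 0 lower. They were SPTBN1, a spectrin (1.23, SE 0.12, adjusted p = 3.64e-05), and ANK3, the ankyrin that anchors sodium channels at the initial segment (0.36, SE 0.08, adjusted p = 0.00879). ANK3 was lost without animal 2 (adjusted p = 0.316). Of its 3 other tested probe sets 2 had the same sign, and 1 of those was called. FGF13 (-0.17, adjusted p = 0.142) and FGF12 (0.06, adjusted p = 0.585), which bind sodium channels, were not called. The median over the list was -0.09, against -0.01 over all tested probe sets.

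Of 19 tested partners of calcium channels and genes of calcium handling, 3 were higher and 1 lower in M1. Of all tested probe sets 7.49% were higher and 5.36% lower. CABP1, a calcium-binding regulator of these channels, had 10.46, 10.48 and 10.28 in M1 of animals 1, 2 and 3, against 9.68, 9.81 and 9.8 in A46 (difference 0.64, SE 0.08, adjusted p = 0.000239). The sodium-calcium exchanger SLC8A1 (1.84, SE 0.25, adjusted p = 0.000345) and the calcium pump ATP2B3 (0.52, SE 0.07, adjusted p = 0.00032) were higher. The syntaxin STX1A, which binds presynaptic calcium channels, was lower (-0.71, SE 0.1, adjusted p = 0.000438). These 4 held with each animal left out in turn, with adjusted p of at most 0.0472.

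Of 7 tested partners and relatives of HCN and TRP channels, limma called 0, with 3 at an unadjusted p under 0.05 (25.9% of all tested probe sets were) and a median of -0.06. The values were -0.18 for HOMER1 (adjusted p = 0.155), 0.16 for PLCG1 (adjusted p = 0.143), -0.2 for UNC79 (adjusted p = 0.0823) and 0.04 for KCTD3 (adjusted p = 0.852).

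Markers of cell types were also read for M1 minus A46, where 7.49% of all tested probe sets were higher and 5.36% lower. Of 6 tested oligodendrocyte and myelin markers, 5 were higher in M1, with summed intensities of 18969 to 23930 in M1 against 9626 to 12608 in A46. All 3 markers of large projection neurons were higher, summing to 3863 to 4810 in M1 against 986 to 1250 in A46. Of 5 GABAergic interneuron markers, PVALB (1.28, adjusted p = 1.03e-05) and GAD2 (0.78, adjusted p = 0.00133) were higher and VIP (-0.48, adjusted p = 0.00399) was lower. Without animal 2 the limma calls of GAD2 (adjusted p = 0.0686) and VIP (adjusted p = 0.189) were lost, and the other GAD2 probe set was not called. The interneuron markers summed to 3342 to 3533 in M1 against 3072 to 3406 in A46. Of 4 general neuron markers, 1 was higher, with sums of 13099 to 13948 in M1 against 13221 to 13525 in A46.

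Of 5 astrocyte markers 1 was higher in M1, with sums of 15832 to 18687 in M1 against 16326 to 16525 in A46. Among all tested probe sets 7.49% were higher and 5.36% lower. Of 7 microglia markers 2 were higher and 1 lower, with sums of 1894 to 2099 in M1 against 1992 to 2093 in A46. Of 4 endothelial and pericyte markers 1 was higher, and of 5 markers of meninges and choroid plexus limma called 0, with 2 at an unadjusted p under 0.05 (25.9% of all tested probe sets were). Endothelial and pericyte markers, here with FLT1, which lay below the filter, summed to 1043 to 1113 in M1 against 1010 to 1039 in A46. Markers of meninges and choroid plexus had a median difference of -0.27 and summed to 665 to 758 in M1 against 681 to 1038 in A46. Without animal 2, no marker of microglia, astrocytes, endothelial cells and pericytes or general neurons was called (adjusted p of at least 0.0942). In that fit 279 of all tested probe sets were higher and 124 lower. The part of all the cell types read here in the channel gene differences was not tested.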

How the data were processed

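Total RNA was hybridised to 24 one-colour arrays, assigned to area, hemisphere and animal from their titles. The deposited values are intensities on a linear scale, summarised with RMA per the submitters' processing notes. Its version is not given in the sources used here, nor is the set of arrays it ran on. Intensities were converted to log2 above a floor of 1. Of 52865 probe sets 99 controls were removed, and those with a mean log2 under 5.62 (intensity 49.3) were left out of the tests. Gene names came from a table of the platform's annotation: 24956 probe sets had 1 symbol, 361 several and 27449 none, and all 43 member genes matched a current entry by Entrez ID. No build is named, so no coordinates are given.

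Hemispheres were averaged, and limma 3.58.1 (R 4.3.3) was fitted on 12 means with area and animal as terms and an intensity trend (lmFit, eBayes). Left minus right used all arrays with animal-by-area as a block, so its 12 pairs come from 3 animals. Tests were two-sided. Numbers in the titles mark animals: after area means were removed, means of 1 animal correlated at 0.207 to 0.85 in 18 pairs, and those of different animals at -0.757 to 0.065 in 48. The fit was tested on simulated data. Members, lists and tests were chosen with earlier results of these data known. Genes named in full are those called by the F test at the gene's brightest probe set and the brightest of each family, and up to 4 genes of each other list. Alternatives were no animal term, each animal left out, no filter, an offset of 16, quantile normalisation, array centring, no trend, 1 hemisphere, and a random block. Taking PMv of animals 1 and 2 from the right array was added after the data were seen.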

Additional observations from a re-analysis of the deposited data

Results flagged for a closer look

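In 6 of 52 area groups of 6 arrays, over the 13 genes named in full, the lowest or highest array stood apart from the others by Dixon's test, where chance gives about 5% of groups of independent values. The 6 arrays of a group are both hemispheres of 3 animals and are not independent, so that share is only a guide. SCN2A in PMd had a lowest value of 10.93 (log2) on the left array of animal 2, against 11.08 to 11.15 on the others. SCN3A in M1 had a lowest value of 6.82 on the right array of animal 1, against 7.2 to 7.35 on the others.

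CACNA2D2 in M1 had a lowest value of 7.85 on the right array of animal 1, against 8.02 to 8.1 on the others. CACNA2D2 in PMv had a lowest value of 7.7 on the left array of animal 1, against 7.96 to 8.05 on the others. TRPM6 in M1 had a highest value of 7.5 on the left array of animal 1, against 6.94 to 7.13 on the others, and TRPM6 in A46 a lowest value of 6.84 on the left array of animal 1, against 7.03 to 7.13.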

How the results depend on the processing

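Counts of called members moved with the animals and the model. Fits without an animal or on 1 hemisphere hold fewer arrays. For the other changes the cause was not tested. For any area difference (6), centring gave 3, left arrays alone 1 and the fit with no replicate block 0, and leaving out an animal gave 0 to 14. For M1 minus A46 (10), left arrays gave 5, right arrays 6, no replicate block 4 and left-out animals 1 to 15. For PMd minus A46 (1), the random block, the right PMv arrays and quantile normalisation gave 4 each, right arrays 3, no filter 2, and centring, left arrays and no replicate block 0, with 0 to 9 over left-out animals. For PMv minus A46 (0), the random block and the right PMv arrays gave 1, and left-out animals 0 to 10. For M1 minus the premotor mean (3), quantile normalisation gave 6, the random block and right PMv arrays 5, centring, left arrays and no replicate block 0, and left-out animals 0 to 3. PMd minus PMv gave 0 to 2 over left-out animals. Hemisphere tests called 0 under every alternative run. Array centring turned 1976 higher and 1415 lower calls over all probe sets for M1 minus A46 (58.3% higher) into 1483 and 668 (68.9%), quantile normalisation into 2240 and 2124 (51.3%), and leaving out animal 3 into 2707 and 2703 (50.0%). Among single genes, 3 values for M1 minus A46 changed sign: CACNA1B (-0.02) ranged from -0.09 to 0.05 and TRPM6 (0.13) from -0.000493 to 0.21 over left-out animals, and the other TRPM6 probe set had -0.11. Of the other named-gene values, 163 kept their direction and side of the threshold and 52 no longer passed.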

Other observations

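Dim channel genes were read from a fit without the intensity filter, a single alternative whose values have no second check here. Of the 22 member probe sets left out of the tests, 2 were called for M1 minus A46, against 5.97% of all probe sets in that fit. They were CACNA1C, the pore of L-type channels (-0.33, SE 0.08, adjusted p = 0.0219), and TRPC4, a receptor-operated channel subunit (0.25, SE 0.07, adjusted p = 0.0404). For PMd minus A46, 1 was called, against 0.855% of all: SCN7A (0.5, SE 0.09, adjusted p = 0.0157), whose second probe set had 0.19 (SE 0.09, adjusted p = 0.5). SCN7A was also the 1 called for any area difference (adjusted p = 0.023), against 3.26% of all. These genes were named after their values were seen.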
